A study of Mus musculus with 2 samples.

Results

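The colony-stimulating factors (CSFs) and their receptors were described in 2 RNA sequencing libraries of mouse peritoneal macrophages. The members were the 7 genes Csf1, Csf3, Csf1r, Csf2ra, Csf2rb, Csf2rb2 and Csf3r, taken by symbol from the 34745 genes listed for each library. They comprise 2 ligands and 5 receptor chains. All 7 had a mean over both libraries of at least 1 FPKM (fragments scaled to the length of a transcript and the size of the library), the floor that 9038 genes passed. The library labelled knockout (the knockout-labelled library) came from Kdm2b-/- mice and the other from wild type mice, both of the C57BL/6 background. In both, the cells were collected 4 days after thioglycollate, a broth that draws monocytes into the peritoneal cavity, and were then given lipopolysaccharide (LPS) at 100 ng/ml. The labels give the time in LPS as 4 h in one field and as 3 h in another. The Kdm2b allele, the number of mice in each library and their age and sex were not stated in the labels, and both libraries were LPS-treated, so the values are levels under LPS and not responses to it.

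The CSFs are secreted growth factors that keep myeloid cells alive and drive their production, and macrophages are both a source and a target of them. CSF1 (M-CSF) acts through CSF1R, a receptor tyrosine kinase that also binds IL-34 and that macrophages need for survival. GM-CSF, the product of Csf2, binds an alpha chain encoded by Csf2ra, which then pairs with a beta chain that signals through the kinase JAK2 and the factor STAT5. The beta chain encoded by Csf2rb is shared with the receptors of interleukin-3 and interleukin-5, and mice carry beside it Csf2rb2, whose product serves interleukin-3 alone. CSF3 (G-CSF) acts through CSF3R, best known for its role in neutrophils, and LPS is a classic inducer of Csf2 and Csf3 in macrophages.

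There was 1 library per genotype. No difference could therefore be set against the spread between mice, no p-value was computed, and each statement is about these libraries. The depth was estimated at 26800000 fragments for the knockout-labelled library and 27300000 for the wild-type library. Kdm2b itself stood at 0.326 FPKM in the knockout-labelled library and 0.205 FPKM in the wild-type library, or some 45 and 29 fragments. The knockout-labelled library was thus not lower for the targeted gene, and a value for a whole gene cannot show a deleted exon. Of the 8 macrophage markers past the floor, Csf1r among them, 0 were 1.5-fold apart, where 4.7% of all genes were higher and 2.8% lower. In the knockout-labelled library 5 of the 8 stood higher, as did 63.2% of all genes, and 3 lower. Adgre1 stood at 56.9 and 44.3 FPKM, Lyz2 at 11409 and 8945, Cd14 at 905 and 1136 and Cd68 at 1753 and 1722, in that order of libraries. This order, the knockout-labelled library first, is used throughout.

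The receptor chains of GM-CSF and interleukin-3 were the most abundant members and Csf3r the least, in both libraries. In the wild-type library the order by FPKM, which is scaled to transcript length, was Csf2ra, Csf2rb, Csf2rb2, Csf1r, Csf3, Csf1 and Csf3r. The same order held in the knockout-labelled library, except that Csf3 and Csf1 stood level there, at 17.79 and 17.77 FPKM. Csf2ra was at 12.6 times the level of Csf3r in the wild-type library and at 14.5 times in the knockout-labelled library. Among all listed genes of the wild-type library Csf2ra ranked 655th by FPKM, Csf1r 1460th and Csf3r 4181st.

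**Figure D1:**
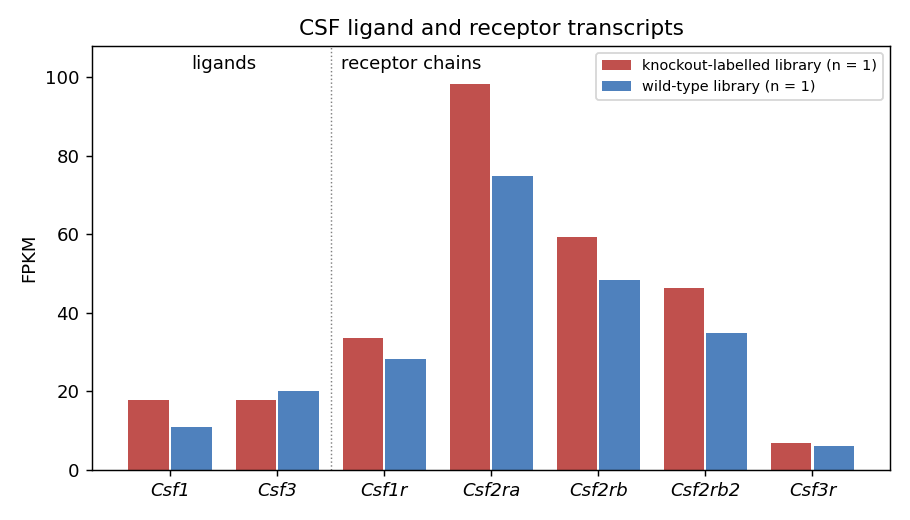
FPKM of the 2 ligand genes and the 5 receptor chain genes in the knockout-labelled library (red) and the wild-type library (blue), 1 library each and so without error bars. All 5 receptor chains and Csf1 stood higher in the knockout-labelled library, and Csf3 stood slightly lower.

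None of the 7 members was 2-fold apart between the libraries. Of all genes past the floor, 1.88% were 2-fold apart, 0.863% higher and 1.02% lower in the knockout-labelled library, on the log2(FPKM + 1) scale used for every log2 ratio here. Counts of genes 2-fold or 1.5-fold apart are on that scale too, and the added 1 FPKM shrinks the ratios of low genes. At 1.5-fold, Csf1 was the only member counted as higher, where 4.7% of all genes were. It was no longer counted with the median of all genes scaled to 0, with equal upper quartiles, with a pseudocount of 5 or with the trend in length and GC content removed, where its log2 ratio was 0.505 to 0.54. None was 1.5-fold lower, where 2.8% of all genes were. Of the 7 log2 ratios 6 were above 0, but so were 63.2% of those of all genes, whose median was 0.10 with an SD of 0.36. The median of the members was 0.29.

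Csf1, which encodes the growth factor of the macrophage lineage, had the largest difference of the members. It lies on chromosome 3 from 107741048 to 107760469 on the minus strand (GRCm38; ENSMUSG00000014599) and overlaps no annotated gene. Its level was 17.8 FPKM in the knockout-labelled library and 11.0 FPKM in the wild-type library. The first was thus 1.62 times the second, and the 95% counting interval of that ratio, based on 1989 and 1253 estimated fragments, was 1.505 to 1.74. No annotated length gave whole fragment numbers, so these rest on the longest transcript. With the median transcript length, about 999 and 629 fragments, the interval was 1.46 to 1.79 and took in 1.5. The log2 ratio was 0.65, and 3.18% of all genes past the floor had a higher one.

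Fibroblasts and mesothelial cells are known sources of Csf1 besides macrophages. All of their 13 markers passed the floor. In the knockout-labelled library 3 of them stood 2-fold or more above the wild-type library and 0 stood that far below it. Of all genes past the floor, 0.863% and 1.02% did so. These 3 were collagen genes: Col1a1 (16.0 and 3.63 FPKM), Col1a2 (24.2 and 9.67 FPKM) and Col3a1 (22.9 and 9.54 FPKM), the last just short of 2-fold with the trend in length removed (0.99). Of the 13, 8 had a log2 ratio above 0 and 5 below, the lowest being the mesothelial genes Msln (2.77 and 4.32 FPKM, -0.50) and Krt19 (12.9 and 16.2 FPKM, -0.31) and the proteoglycan gene Lum (9.46 and 12.4 FPKM, -0.35). None was 1.5-fold lower, where 2.8% of all genes were. With the median of all genes scaled to 0, 1 (Msln) was, as were 387 of all 9038 genes. In FPKM alone, without the added 1, Msln was past 1.5-fold too. The summed level of the 13 markers was 414 and 370 FPKM, most of it from Dcn, a proteoglycan gene, at 251 and 248 FPKM. None of the 13 was at 0 in both libraries. The part of such cells in the Csf1 difference was not tested. In bulk RNA, fewer cells of a type and less RNA per cell cannot be told apart.

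Csf3, the gene of G-CSF, was the only member below 0. It lies on chromosome 11 from 98701263 to 98703629 on the plus strand (ENSMUSG00000038067) and has 1 annotated transcript of 1413 bases. Its level was 17.8 FPKM and 19.96 FPKM, which corresponded to 674 and 769 fragments. The knockout-labelled library was at 0.892 times the wild-type level, with a counting interval of 0.803 to 0.99, and the log2 ratio was -0.16. The upper end of that interval lay just below 1.

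Once Csf2 is set beside them, the make-up of the CSF ligand transcripts differed between the libraries. Csf2, which is no member, lies elsewhere on chromosome 11 and stood at 6.34 and 40.1 FPKM. The FPKM of Csf1, Csf2 and Csf3 summed to 41.9 in the knockout-labelled library and to 71.0 in the wild-type library. Csf2 held 56.4% of that sum in the wild-type library and 15.1% in the knockout-labelled library. Csf1 held 15.5% in the wild-type library and 42.4% in the other, and Csf3 28.1% and 42.5%. Without Csf2 the order of the sums was the opposite one, at 35.6 FPKM for the knockout-labelled library and 31.0 FPKM for the wild-type library. Csf3 and Csf2, both LPS-induced ligand genes, were thus 1.12 and 6.32 times as high in the wild-type library as in the knockout-labelled library.

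**Figure D2:**
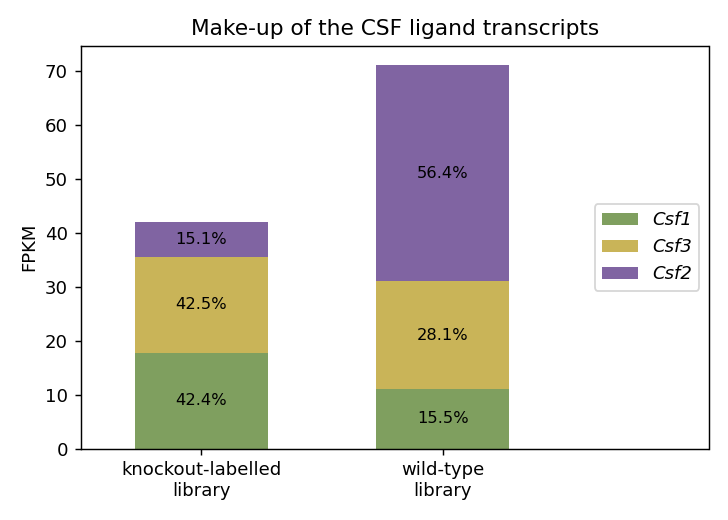
Stacked FPKM of Csf1, Csf3 and Csf2 in each library (1 library per bar), with the percentage of the sum that each gene held. Csf2 took 56.4% of the wild-type sum and 15.1% of the sum in the knockout-labelled library, while the lower segments, Csf1 and Csf3, summed to 35.6 FPKM in the knockout-labelled library and 31.0 FPKM in the wild-type library.

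Csf1r, the receptor of CSF1 and a defining gene of macrophages, stood at 33.6 FPKM in the knockout-labelled library and 28.2 FPKM in the wild-type library. The ratio was 1.19 (counting interval 1.14 to 1.25, about 4230 and 3611 fragments) and the log2 ratio 0.25. In FPKM, Csf1r stood at 1.89 times the level of Csf1 in the knockout-labelled library and at 2.56 times in the wild-type library. The gene lies on chromosome 18 from 61100598 to 61132149 on the plus strand (ENSMUSG00000024621). Its last 873 bases overlap Hmgxb3, a gene of the opposite strand that stood at 4.27 and 3.17 FPKM. No strand marking is described for these libraries, so fragments from the overlap could belong to either gene: 16.8% of the stretches of 100 bases in the longest Csf1r transcript also occur in Hmgxb3 transcripts.

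Csf2ra, the GM-CSF-specific alpha chain, was the most abundant member, at 98.2 and 74.7 FPKM. It lies on chromosome 19 from 61223957 to 61228429 on the minus strand (ENSMUSG00000059326). A transcript length of 1849 bases gave whole fragment numbers in both libraries, 4866 and 3769. The knockout-labelled library was at 1.31 times the wild-type level (counting interval 1.26 to 1.37), a log2 ratio of 0.39. Csf2ra and its ligand gene differed in opposite directions, so Csf2ra stood at 15.5 times the level of Csf2 in the knockout-labelled library and at 1.87 times in the wild-type library.

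The beta chain genes lie beside each other on chromosome 15, in opposite orientation and 20030 bases apart. Csf2rb, the shared chain, spans 78325752 to 78353847 on the plus strand (ENSMUSG00000071713) and Csf2rb2 spans 78282507 to 78305721 on the minus strand (ENSMUSG00000071714). Csf2rb stood at 59.4 FPKM in the knockout-labelled library and 48.3 FPKM in the wild-type library, 1.23 times as high in the first (counting interval 1.19 to 1.27, with 7580 and 6276 fragments at a length of 4764 bases). Csf2rb2 stood at 46.4 and 34.9 FPKM, 1.33 times as high (counting interval 1.28 to 1.38, about 5895 and 4512 fragments). Their log2 ratios were 0.29 and 0.40. Summed, the beta chains stood at 105.8 and 83.2 FPKM, a log2 ratio of 0.34.

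These genes are near copies of each other, which bears on how far their values can be read apart. Over 2628 aligned coding bases they differed at 125, an identity of 95.2%, and the longest run without a difference was 242 bases. Below are the most and the least different windows of 120 coding bases that lie within 1 exon of both genes, from the GENCODE M21 transcripts of GRCm38, each 5′ to 3′ on the gene's own strand, with differing bases in capitals. The first pair, from exon 5 of Csf2rb (chr15:78338867-78338986) and exon 4 of Csf2rb2 (chr15:78294345-78294464), differs at 16 bases.
Csf2rb: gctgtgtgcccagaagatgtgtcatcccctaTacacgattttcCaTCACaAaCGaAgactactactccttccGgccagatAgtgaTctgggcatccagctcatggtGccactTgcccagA
Csf2rb2: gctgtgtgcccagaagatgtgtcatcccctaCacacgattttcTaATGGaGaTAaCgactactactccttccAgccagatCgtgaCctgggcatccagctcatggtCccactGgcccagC
The second pair, from exon 15 of Csf2rb (chr15:78348577-78348696) and exon 14 of Csf2rb2 (chr15:78284752-78284871), is identical over all 120 bases, so a fragment from within it could be placed on either gene.
Csf2rb: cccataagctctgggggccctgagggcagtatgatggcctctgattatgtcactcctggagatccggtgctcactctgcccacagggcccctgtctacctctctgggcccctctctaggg
Csf2rb2: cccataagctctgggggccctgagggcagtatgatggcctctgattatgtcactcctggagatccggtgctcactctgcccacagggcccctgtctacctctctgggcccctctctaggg

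Of the stretches of 50 bases in the longest coding transcript, 18.4% for Csf2rb and 19.5% for Csf2rb2 also occurred in transcripts of other genes, nearly all in the other beta chain gene. At 100 bases the shares were 6.96% and 7.2%. Csf1, Csf3 and Csf2ra shared 0 such stretches of either length with any other annotated gene. How the authors' counting placed shared fragments was not given in the sources used here, nor was the read length. The level of each beta chain gene is therefore uncertain, and their sum is less so. The ratio of Csf2rb to Csf2rb2 was 1.28 in the knockout-labelled library and 1.38 in the wild-type library. Csf2ra stood at 0.928 and 0.898 times the summed beta chains, nearly the same proportion in both libraries. That sum takes in Csf2rb2, whose product serves interleukin-3 alone, so the proportion is not that of 1 receptor. Il3ra, the alpha chain of the interleukin-3 receptor, stood at 32.6 and 20.5 FPKM.

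Csf3r, the G-CSF receptor, was the lowest of the members, at 6.75 FPKM in the knockout-labelled library and 5.95 FPKM in the wild-type library. It lies on chromosome 4 from 126024550 to 126044440 on the plus strand (ENSMUSG00000028859). The ratio was 1.13 with a counting interval of 1.01 to 1.27, based on about 630 and 565 fragments, and the log2 ratio was 0.16. With the median instead of the longest transcript length, about 369 and 331 fragments, the interval reached from 0.975 to 1.32, so the libraries were not told apart at this depth. Neutrophils carry much of this receptor. Of 12 neutrophil markers, a list that holds Csf3r itself, 4 (Ly6g, Mpo, Retnlg and Stfa2l1) were at 0 in both libraries, and those past the floor were Csf3r and S100a8 (14.6 and 13.8 FPKM). The summed level of the list, Csf3r included, was 22.1 and 20.6 FPKM. The part of neutrophils in the Csf3r level was not tested. In the longest Csf3r transcript, 11.5% of the stretches of 50 bases recurred in other genes, and 0.414% of those of 100 bases.

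Across the libraries, log2 ratios went with transcript length, and the members are mostly long. The median log2 ratio was -0.23 in the shortest 10% of genes and 0.29 in the longest. Genes of lengths like that of Csf1 (4174 to 4482 bases) had a median of 0.18, those like Csf1r and Csf2rb2 (4482 to 4877 bases) one of 0.21, and those like Csf3 (1200 to 1468 bases) one of -0.12. With the trend in length and GC content removed, Csf1 stood at a log2 ratio of 0.50, Csf2ra at 0.33 and Csf2rb2 at 0.25. Csf2rb (0.14), Csf1r (0.08), Csf3r (0.06) and Csf3 (-0.03) then lay near the median of all genes, 0.10. After that step 5.92% of genes had a higher ratio than Csf1 and 54.8% a higher one than Csf1r. Above 0 were again 6 of the 7 members, against 68.4% of all genes.

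**Figure D3:**
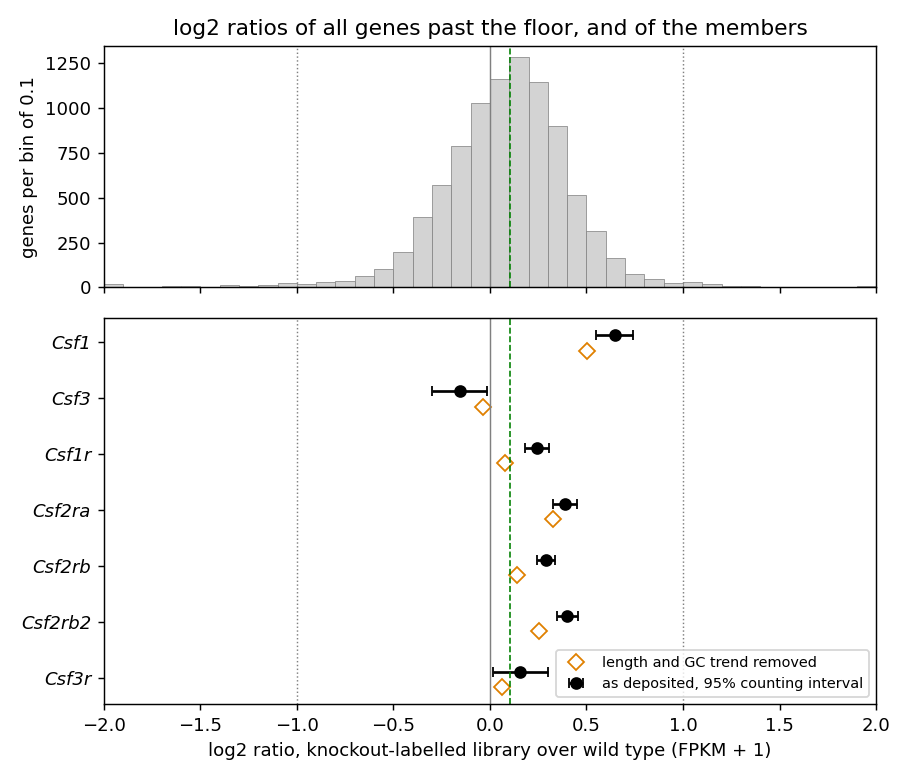
Upper panel, number of genes past the floor per bin of 0.1 in the log2 ratio of the knockout-labelled library over the wild-type library, with genes beyond the axis counted in the outermost bins. Lower panel, the members' log2 ratios with 95% counting intervals (black) and after removal of the length and GC trend (open diamonds); the dashed line is the median of all genes, 0.10, and the dotted lines mark 2-fold, which no member reached.

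Other ligands and chains of these receptor families were mostly not detected. Il34, the second ligand of CSF1R, stood at 0.441 and 0.392 FPKM. Il3 and Il5 were listed at 0 in both libraries, and Il5ra, the interleukin-5 receptor chain, at 0 and 0.00608 FPKM. Of 11 such genes 3 passed the floor, and all 3 were above 0, as were 63.2% of all genes. Il3ra, the alpha chain that pairs with both beta chains, stood at 32.6 and 20.5 FPKM, a log2 ratio of 0.65. It was the 1 counted as 1.5-fold higher, where 4.7% of all genes were. That count ended at 0.52 with the median scaled to 0 and at 0.57 with the trend removed. Pdgfra (12.1 and 7.81 FPKM, 0.58) and Pdgfrb (1.81 and 1.01 FPKM, 0.49), kinases of the family of CSF1R, are marks of fibroblasts. Pdgfra too was 1.5-fold higher with equal FPKM sums (0.66), as were 667 of all 9038 genes. Pdgfrb is the next coding gene to Csf1r, 15536 bases before it.

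The genes that carry the signal of CSF receptors lay within 1.5-fold between the libraries, as most genes did. All 23 passed the floor and 0 were 1.5-fold apart, against 678 of all 9038 genes. Above 0 were 20 of them, against 63.2% of all genes, with a median of 0.24 against 0.10. The widest differences were those of Pik3r1, a regulatory subunit of PI3 kinase (4.28 and 2.87 FPKM, 0.45), the adaptor Shc1 (0.39), the phosphatase Ptpn11 (0.36) and the kinase Tyk2 (0.35). Jak2, the kinase bound to the beta chain, stood at 104.8 and 88.9 FPKM (0.23), and Stat5a at 20.2 and 16.3 FPKM (0.30); Jak2 and Stat5a were named after their values were seen. Once the trend in length and GC content was removed, 19 of the 23 were above 0 against 68.4% of all genes, and the median was 0.13 against 0.10, which is near that of all genes. With the median of all genes scaled to 0 it was 0.11.

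Negative regulators of this signal lay on both sides of 0. Of 10 past the floor 5 were above and 5 below, where 63.2% of all genes were above, and the median was -0.01. Of the 10, 0 were 1.5-fold apart, against 678 of all 9038 genes. With equal FPKM sums the list's median was 0.04 and 1 gene, Cblb, was 1.5-fold higher (0.63), as were 667 of all 9038 genes. The ubiquitin ligases Cblb (7.51 and 4.82 FPKM, 0.55) and Cbl (0.39), which take activated receptors to degradation, were above. The feedback inhibitor Cish (4.82 and 6.73 FPKM, -0.41) and the adaptor Dok2 (-0.35) were below.

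Genes listed as targets of STAT5 and STAT3 were mostly lower in the knockout-labelled library. Of 12 past the floor 9 were below 0, against 3323 of all 9038 genes, and the median was -0.23, or -0.35 with the trend removed. On the log2(FPKM + 1) scale none was 2-fold apart, 1 was 1.5-fold higher and 1 was 1.5-fold lower. Of all genes, 1.88%, 4.7% and 2.8% were. The lower one was Osm, the gene of the cytokine oncostatin M, at 3.44 and 7.76 FPKM (-0.98). With the median of all genes scaled to 0 Osm was past 2-fold (-1.08), where 113 of all 9038 genes were 2-fold lower. The survival gene Bcl2l1 stood at 0.943 and 1.89 FPKM (-0.57). Cish, Socs1, Socs2 and Socs3, all below 0, are in this list and in that of the negative regulators, so the 2 lists are not separate observations. The growth gene Myc was the higher one, at 1.64 and 0.687 FPKM (0.65). With the median of all genes scaled to 0, Myc was short of 1.5-fold (0.57) and Bcl2l1 joined Osm as 1.5-fold lower (-0.64). Under that scaling 387 of all 9038 genes were 1.5-fold lower. In FPKM alone, without the added 1, Osm, Bcl2l1 and Myc were each more than 2-fold apart. Other cytokines of the culture also act through these factors, and the part of any one of them was not tested.

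Of the genes that shed or cleave CSF1 and CSF1R, 9 passed the floor and 8 were above 0, against 63.2% of all genes, with a median of 0.17 against 0.10. With the median of all genes scaled to 0 the list's median was 0.05. The 1 that was 2-fold higher was Timp3, an inhibitor of the sheddase ADAM17 that stromal cells make, at 26.5 and 12.2 FPKM (1.06). Of all genes, 0.863% were 2-fold higher. Timp3 was short of 2-fold with the median of all genes scaled to 0 (0.94) and with the trend removed (0.96). Adam17 itself stood at 22.7 and 17.8 FPKM (0.34) and Rhbdf2, which carries ADAM17 to the cell surface, at 20.9 and 16.2 FPKM (0.35). Psen2, a subunit of gamma-secretase, had a log2 ratio of 0.21. Among 8 measured transcription factors that act at CSF receptor genes the median was 0.16. Of these, 0 were 1.5-fold apart, against 678 of all 9038 genes. With equal FPKM sums 1 (Ets2, 0.61) was 1.5-fold higher, as were 667 of all genes. Ets2 (12.5 and 8.37 FPKM, 0.53), Fli1 (0.48) and Cebpa (0.34) were above 0 and Irf8 (16.4 and 19.9 FPKM, -0.27) below. Spi1, the master regulator of Csf1r and the other receptor genes, was close in both, at 66.7 and 69.0 FPKM (-0.05), and was named after its value was seen.

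**Figure D4:**
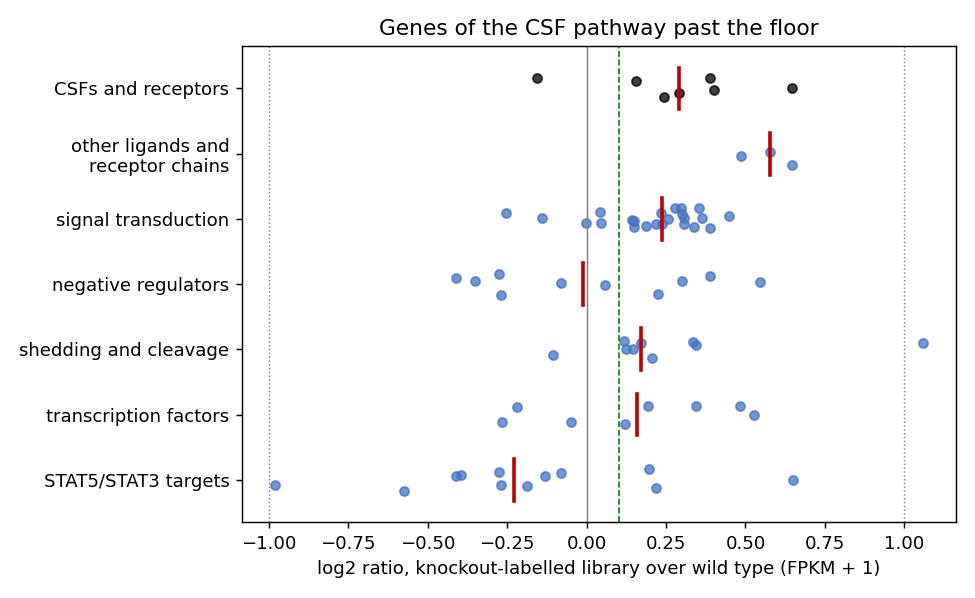
Log2 ratios of the members (black) and of the genes of 6 pathway lists (blue) that passed the floor, 1 point per gene, with list medians in red, the median of all genes as a dashed line and 2-fold as dotted lines. The list of STAT5 and STAT3 targets had its median at -0.23 and that of signal transduction at 0.24. Timp3 was the only gene past 2-fold, where 1.88% of all genes were.

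Immediate neighbours on the chromosomes gave no common picture. Csf3 lies between Psmd3, a proteasome subunit gene (9.69 and 7.57 FPKM, 0.32), and Med24, a Mediator subunit gene (2.19 and 1.54 FPKM, 0.33), 961 bases away from the latter, and both neighbours were above 0 where Csf3 was below. Ahcyl1 beside Csf1 stood at 7.70 and 8.24 FPKM (-0.09), on the other side of 0 from Csf1, and Eps8l3 on its other side was at 0 and 0.014 FPKM. Ncf4, an oxidase subunit gene beside Csf2rb2, stood at 31.2 and 29.5 FPKM (0.08). Mrps15 beside Csf3r stood at 27.1 and 29.0 FPKM (-0.10). Tex33 beside Csf2rb, Grik3 beside Csf3r and the gene models on both sides of Csf2ra were listed at 0 in both libraries.

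The members kept their sides of 0 under every scaling tried, and the size of the receptor values depended on the scaling. Csf3r and Csf3 came close to 0: Csf3r at 0.05 with the median scaled to 0, and Csf3 at -0.07 with equal FPKM sums. With the median log2 ratio of all genes brought to 0 (the knockout-labelled library scaled by 0.915), Csf1 stood at 0.52, Csf2rb2 at 0.28, Csf2ra at 0.26, Csf2rb at 0.17, Csf1r at 0.12, Csf3r at 0.05 and Csf3 at -0.28.

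**Figure D5:**
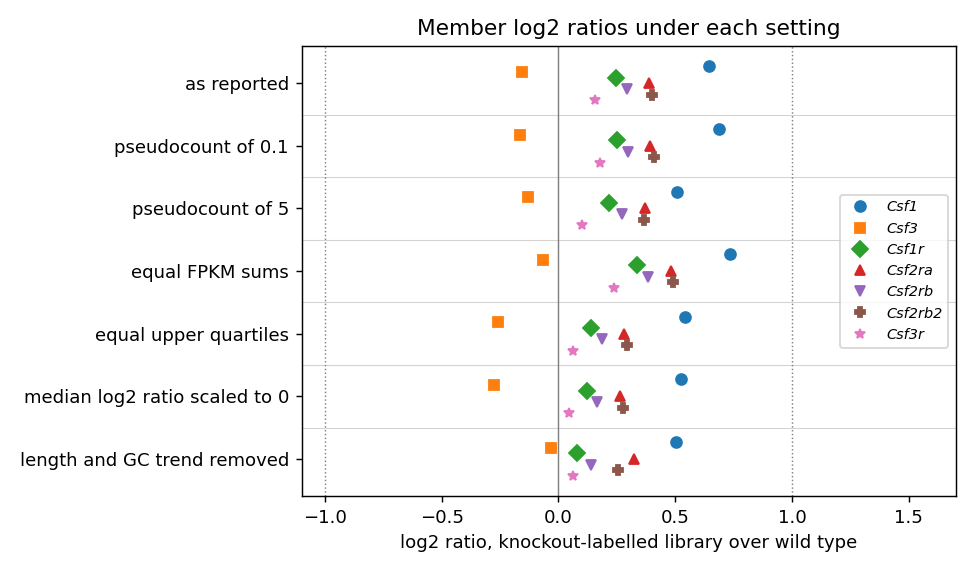
Log2 ratio of each member under the reported setting and the alternative pseudocounts, scalings and trend removal; each symbol is 1 gene, and dotted lines mark 2-fold. Csf1 lay highest and Csf3 lowest in all 7 settings, Csf3 being the member below 0 in each.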

How the data were processed

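Polyadenylated RNA of 2 samples was copied with random primers into paired-end libraries, per the labels' protocols. The values the authors deposited are in FPKM, 1 per Ensembl gene, per the file headers. Named in the submitters' processing notes are edgeR, StringTie 1.3.0, HISAT2 2.0.4, mm10 and GRCm38.p4; their roles, the annotation and filters were not given in the sources used here. Since FPKM scales by length and library size, a few abundant genes move all others.

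Symbols, coordinates, lengths and GC content came from GENCODE M21 (GRCm38), with a symbol for 34267 IDs and none for 478. Genes with a mean of 1 FPKM entered, and 2-fold on log2(FPKM + 1) was the rule of size. Length and GC trends were removed as running medians over 20 bins each, for 99.8% of genes past the floor. In genes with 1 transcript, FPKM times length fell on multiples of 37.3 and 36.7. Within 0.02 of a fragment 92.7% and 92.3% of genes under 20 fragments were whole. From 20 to 1000 fragments the shares were 75.8% and 75.8%. Fragments used the annotated length that gave whole numbers in both libraries within 0.005 (Csf3, Csf2ra, Csf2rb and Csf2), otherwise the longest transcript. Ratio intervals are exact Clopper-Pearson 95% intervals without a pseudocount. Only counting error enters them, and PCR copies of a molecule were counted as separate fragments.

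The members, the 6 pathway lists, the 7 marker lists, the settings and the rule for named genes were chosen with earlier results of these data known. The rule named the members, Csf2 and Kdm2b, up to 4 genes per pathway list with the largest ratios, genes at 0, coding neighbours, and the 2 coding genes nearest in level to each member. Marker genes and others were picked after their values were seen. Alternatives were pseudocounts of 0.1 and 5, scalings to a median of 0, equal upper quartiles and equal sums, a floor of 5 or none, thresholds of 1.5-fold and 4-fold, the trend removed, coding genes only, the median transcript length, and both beta chains summed. The calculations were tested on simulated data. Python 3.11.15, numpy 2.4.6, pandas 2.3.3, scipy 1.17.1, Biopython 1.88 and matplotlib 3.10.9 were used.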

Additional observations from a re-analysis of the deposited data

How the results depend on the processing

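Among the 7 members, 0 were 2-fold higher or lower under any setting other than the 1.5-fold threshold, where 1 (Csf1) was higher. The count of all genes past the threshold was 170 as reported, 678 at 1.5-fold, 23 at 4-fold, 83 with a floor of 5, 311 with a pseudocount of 0.1 and 47 with a pseudocount of 5. Scaling the median to 0 turned its split from 78 higher and 92 lower to 44 and 113, and equal sums to 96 and 76. Each member kept its side of 0 throughout, though Csf3r and Csf3 came close to 0. With the median scaled to 0, values moved beyond the counting interval to 0.52 (Csf1), 0.12 (Csf1r), 0.26 (Csf2ra), 0.17 (Csf2rb) and 0.28 (Csf2rb2). With equal upper quartiles they were 0.54, 0.14, 0.28, 0.19 and 0.29 in the same order, and with the length and GC trend removed 0.505, 0.0782, 0.325, 0.139 and 0.255. With equal sums Csf1r was at 0.34, Csf2ra at 0.48, Csf2rb at 0.38 and Csf2rb2 at 0.49. A pseudocount of 5 put Csf1 at 0.51, and summing Csf2rb and Csf2rb2 gave 0.34 for both. A scaling changes all genes by nearly the same amount, by construction; the cause of the length trend was not tested. The median transcript length widened the intervals and left the ratios as they were, since it cancels. No paired analysis was possible because there was 1 library per genotype, so no replicate could be left out either.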

Other observations

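The coding genes nearest to each member in level over both libraries, by Euclidean distance of log2(FPKM + 1), are given as a description; with 2 libraries this likeness rests on 2 values. Nearest to Csf1 were Plxnb2 (17.1 and 11.4 FPKM, distance 0.067) and Prpf8 (17.0 and 10.6 FPKM). Nearest to Csf3 were Rbbp7 (17.8 and 20.1 FPKM, distance 0.0097) and Prkx. Csf1r stood closest to Ptpn12 (33.5 and 28.1 FPKM, distance 0.0026) and Cers2. Csf2ra had no such close companion, its nearest being Surf4 (98.6 and 80.5 FPKM, distance 0.11) and Nfkbie. Csf2rb was nearest to Plau and Tnfrsf12a, Csf2rb2 to Flna and Pik3r5, and Csf3r to Kpna6 and Grsf1.

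Of the other marker lists, B cell genes differed most: Igkc, an antibody light chain gene, stood at 1.47 and 18.9 FPKM and Ighm at 0.992 and 6.92 FPKM, and the 7 B cell markers summed to 2.87 and 27.3 FPKM. None of the 7 was at 0 in both libraries. Siglecf, an eosinophil marker and thereby of a cell type known for Il5ra and the shared beta chain, stood at 0.533 and 1.58 FPKM, while Epx was at 0 in both. Their part in the values of the CSF receptor genes was not tested.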
